A study of Rattus norvegicus with 17 samples.

Results

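The subunits of oxidative phosphorylation were followed, complex by complex, in the colon mucosa of rats that carry an HLA-B27 transgene and ate more or less calcium. Members were the probes whose gene name on the array, once the endings for predicted or mapped genes were removed, began with Nduf, Uqcr, Atp5 or Cox followed by a figure from 4 to 8, or was Sdha, Sdhb, Sdhc or Sdhd. This rule used no measured value and gave 81 probes of 41012, for 71 genes. Of these genes 65 encode subunits: 31 of complex I, 4 of complex II, 5 of complex III, 12 of complex IV and 13 of complex V. The other 6 were set apart, because they encode no subunit or because the identity of the probe is in doubt. A probe was tested when it lay well above background on at least 8 arrays, and 80 member probes did, with all 71 genes represented. The probe that was not tested is 1 of 3 for Cox8b. The other member probes were well above background on all 17 arrays, apart from that named Cox6b by the array, which was so in 3 of 8 high calcium and 6 of 9 low calcium rats.

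Oxidative phosphorylation couples the oxidation of fuels in mitochondria to the synthesis of ATP. Complexes I and II pass electrons from NADH and succinate to coenzyme Q, complex III passes them on to cytochrome c, and complex IV passes them to oxygen. Complexes I, III and IV pump protons across the inner membrane, and complex V, the ATP synthase, uses the return of the protons to make ATP. The epithelial cells of the colon take much of their energy from the oxidation of butyrate, a short fatty acid made by bacteria, in this way. The probes measure transcripts of nuclear genes, and the core subunits that mitochondrial DNA encodes were not analysed here.

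All rats were females of an inbred Fisher 344 background that carried the HLA-B27 and β2-microglobulin transgenes, which lead to colitis. They were 8 to 10 weeks old when feeding began. Of these rats 8 ate the high calcium diet, with 120 mmol calcium per kg, and 9 the low calcium diet, with 30 mmol per kg. Both were purified Western-type diets made to resemble human food, and the added calcium took the place of glucose. Both groups carry the transgenes, and no rat without them was analysed, so each comparison is between diets within a colitis model. RNA of mucosal scrapings from each rat was labelled with Cy5 and hybridised on its own array with a Cy3-labelled pool of all animals. Each value is therefore the log2 ratio of 1 rat to that pool, and a difference is the mean of the high calcium rats minus that of the low calcium rats. The arrays carry no depth; the number of arrays limits the precision. In scrapings, fewer cells of a type and less RNA per cell cannot be told apart.

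Rat 3, on high calcium, and rat 16, on low calcium, lay at the edge of their diets in several of the values below and were hybridised on 1 slide. Fibroblast marker genes averaged 0.24 in rat 3, the highest of the high calcium rats, and -0.13 in both rat 15 and rat 16, the lowest of the low calcium rats. The values of the complexes in both rats are given below, and results that rest on them are given with and without them.

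The promoters of the subunit genes with the largest difference above 0 in complexes I, II, IV and V are shown for the factors that are known to act on such genes. They hold the 150 bases before the annotated start, 5′ to 3′ on the strand of the gene, from the RefSeq table of build GRCr8. Of the 65 genes, 57 matched the table by symbol, and Uqcrb of complex III had no entry. Capitals mark the letters GCGCA, any 1 base and GCGC of nuclear respiratory factor 1 (NRF1) and the letters CCGGAAG of ETS factors such as GABP, both searched on both strands. Ndufs7 lies at chr7:10110499-10110648 on the minus strand, Sdhd at chr8:59850642-59850791 on the minus strand, Cox8a at chr1:213833624-213833773 on the minus strand and Atp5me at chr14:1464710-1464859 on the plus strand.
Ndufs7: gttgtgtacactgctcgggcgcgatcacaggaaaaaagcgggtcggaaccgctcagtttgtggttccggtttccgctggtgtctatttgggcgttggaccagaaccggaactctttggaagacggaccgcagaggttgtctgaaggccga
Sdhd: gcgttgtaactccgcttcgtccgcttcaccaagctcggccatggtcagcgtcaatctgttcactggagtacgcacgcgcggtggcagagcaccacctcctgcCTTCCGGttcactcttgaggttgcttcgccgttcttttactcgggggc
Cox8a: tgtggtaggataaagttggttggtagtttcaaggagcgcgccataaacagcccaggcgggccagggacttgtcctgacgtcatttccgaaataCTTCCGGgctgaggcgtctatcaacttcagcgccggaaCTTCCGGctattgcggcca
Atp5me: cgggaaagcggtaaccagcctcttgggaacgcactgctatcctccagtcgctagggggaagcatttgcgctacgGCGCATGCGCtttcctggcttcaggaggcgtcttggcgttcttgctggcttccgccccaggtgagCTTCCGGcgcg

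Atp5me held NRF1 letters from base -76 to base -67 and ETS letters from base -11 to base -5, counted back from the annotated start. Cox8a held ETS letters at -57 to -51 and at -19 to -13, and Sdhd at -48 to -42. Ndufs7 had neither in this stretch and held AAGATGGCG, the letters of the factor YY1, from the fifth base counted from its start. Over windows of 250 bases before to 50 after the start, NRF1 letters stood in 14 of the 57 subunit promoters, or 24.6%, against 4.71% of 27457 promoters of all genes. ETS letters stood in 17, or 29.8%, against 9.22%, and YY1 letters in 9, or 15.8%, against 1.93%; the ETS letters can run into those of YY1, so 1 stretch can hold both. By complex, NRF1 letters were found in 7 of 28 promoters of complex I, 5 of 12 of complex V and 0 of 9 of complex IV. Such matches describe the sequence and do not show that a factor binds there.

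No subunit gene passed the test for a difference between diets, while most lay slightly higher with high calcium. In limma, 0 of the 80 member probes had an adjusted p (Benjamini-Hochberg over all 27101 probes tested) under 0.05, as did 0% of all 23149 genes. Without adjustment 7 probes had a p under 0.05, all with the higher mean in the high calcium group. Taking the brightest probe of each gene, 6 of the 65 subunit genes did so, or 9.23%, against 9.02% of all genes, so their number was near the background. All 6 lay higher, where 4.13% of all genes were higher and 4.89% lower at this p. A difference above 0 was found for 49 of the 65 subunit genes, or 75.4%, against 54.3% of all genes, and the median difference was 0.033 against 0.0075 over all genes. With each array centred on its median in place of loess 59 of the 65 lay higher, against 65.7% of all probes, and in the authors' deposited values 56, against 63.9%. The median of 0.033 is 1.02-fold and lies below the median SE of 0.057 for a single gene. For 0 of the 65 genes did the values of the groups fail to overlap, against 0.0302% of all genes. The smallest adjusted p of a subunit gene by its brightest probe was 0.42, for Atp5me.

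**Figure D1:**
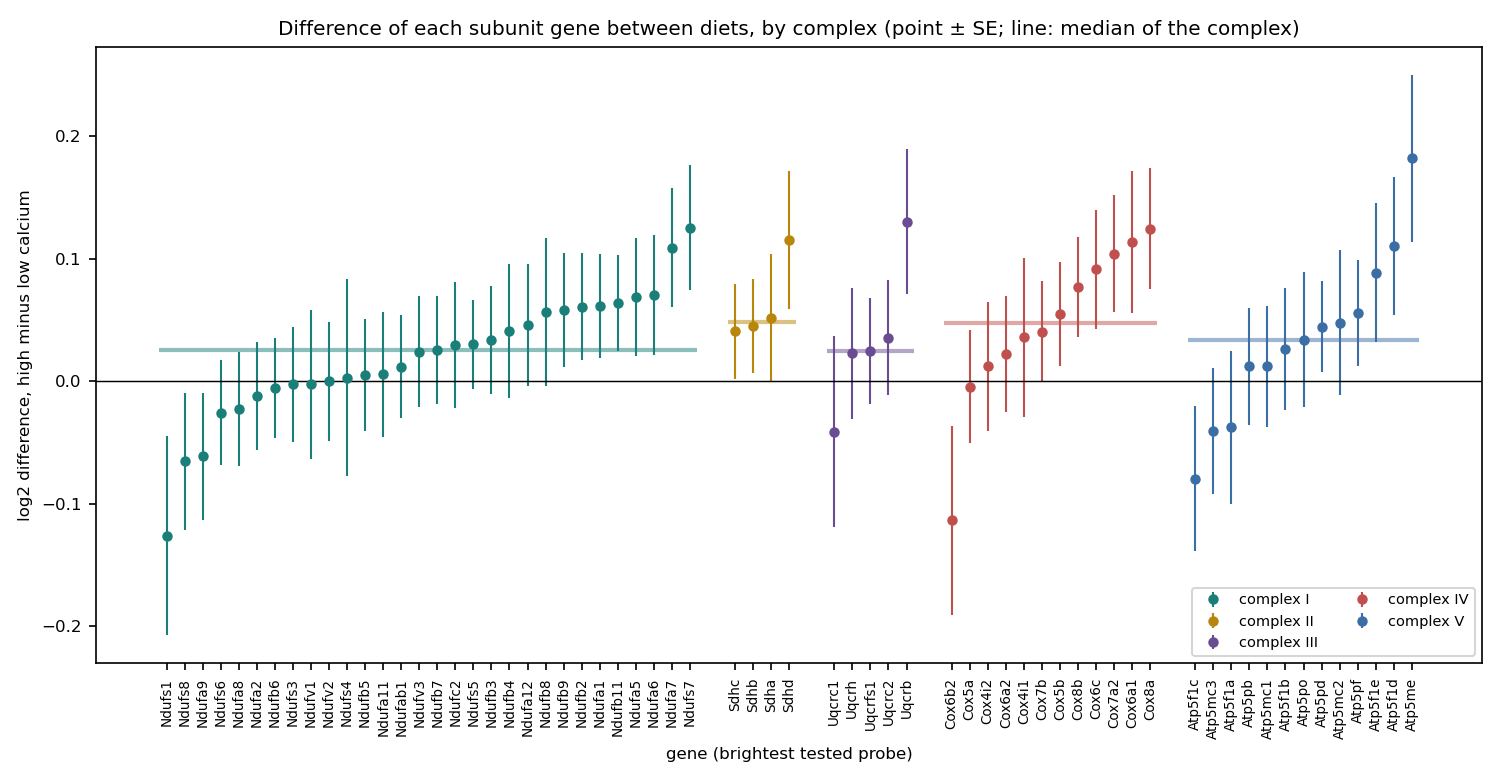
Difference between diets (high minus low calcium, log2, vertical axis) for 64 subunit genes (horizontal axis), as points with their SE and grouped by complex, with a line at the median of each complex. The points run from -0.13 for Ndufs1 to 0.18 for Atp5me, and the 5 medians lie between 0.024 and 0.048.

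In complex I, which takes electrons from NADH, 21 of 31 genes lay higher with high calcium and 10 lower, with a median of 0.025 and a range of -0.13 to 0.13. The 7 core subunits, which carry the flavin, the iron-sulfur clusters and the quinone site, and the 24 supernumerary subunits around them had different counts. Of the core genes 2 lay higher and 5 lower, with a median of -0.0026, whereas 19 of the supernumerary genes lay higher and 5 lower, with a median of 0.030. The difference between these counts was not tested. Of the core genes counted as lower, 3 (Ndufs3, Ndufv1 and Ndufv2) lay close to 0, at -0.0026, -0.0026 and -0.00011. All 3 lay above 0 with each array centred on its median, in the authors' deposited values and with the scanner's processed signals. They did so too in 7, 7 and 6 of 18 runs that left out rats.

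Ndufs7, a core subunit that carries the last iron-sulfur cluster before the quinone, had the largest difference above 0 in complex I. Its values ran from -0.15 over a median of 0.053 to 0.19 in the high calcium rats, and from -0.20 over a median of -0.11 to 0.039 in the low calcium rats. The groups overlapped, although 5 of 8 high calcium rats lay above every low calcium rat. The means differed by 0.13 ± 0.051 (SE; 8 against 9 rats; limma adjusted p = 0.48), or 1.09-fold. Ndufa7, a supernumerary subunit, ran from 0.11 over 0.28 to 0.44 with high calcium and from 0.10 over 0.16 to 0.30 with low calcium. It differed by 0.11 ± 0.049 (limma adjusted p = 0.53), and 4 high calcium rats lay above every low calcium rat. Ndufb11, a supernumerary subunit of the membrane arm, differed by 0.064 ± 0.039.

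Ndufs1, the largest core subunit and the carrier of several iron-sulfur clusters, lay furthest in the other direction. It ran from -0.32 over -0.11 to 0.11 with high calcium and from -0.32 over -0.034 to 0.37 with low calcium. The groups overlapped over most of their range, and the difference was -0.13 ± 0.081 (limma adjusted p = 0.70). Its spread within a diet, an SD of 0.18, was the largest in complex I, where the median gene had 0.089 against 0.12 over all genes. Ndufs8, another iron-sulfur core subunit, differed by -0.065 and -0.067 on its 2 probes, and 1 of 8 high calcium rats exceeded the low calcium median. Further core subunits had small differences. Ndufs3, which lies in the matrix arm, differed by -0.0026. Ndufv1, the subunit that binds NADH and flavin, differed by -0.0026, and its partner Ndufv2 by -0.00011. Ndufa9, an accessory subunit near the quinone site, had 2 probes of opposite sign, at -0.061 for the brighter and 0.078 for the dimmer, so no direction can be given for it. The counts above take Ndufa9 as lower, by its brighter probe.

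In complex II, which oxidises succinate and is shared with the citrate cycle, all 4 genes lay higher with high calcium, with a median of 0.048, and none had an unadjusted p under 0.05. Sdhd, a membrane anchor that helps to hold the quinone, ran from -0.19 over -0.012 to 0.082 with high calcium and from -0.33 over -0.21 to 0.11 with low calcium. Each of the 8 high calcium rats exceeded the low calcium median, and low calcium rat 16 lay above them all. The difference was 0.12 ± 0.056 (limma adjusted p = 0.58), and it was 0.17 without rats 3 and 16, whose values ran against it. The other anchor, Sdhc, differed by 0.041 ± 0.039. Sdha, the subunit with the flavin where succinate is oxidised, differed by 0.052 ± 0.052. Sdhb, which carries the iron-sulfur clusters, differed by 0.045 ± 0.038, and its spread was narrow, at 0.0313 (SD, n = 8) with high calcium and 0.0745 (SD, n = 9) with low calcium.

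In complex III, the cytochrome bc1 complex, 4 of 5 genes lay higher with high calcium, with a median of 0.024. Uqcrb, a small subunit that binds quinone, ran from 0.0165 over 0.12 to 0.27 with high calcium and from -0.25 over 0.0078 to 0.25 with low calcium. Of the high calcium rats 8 of 8 exceeded the low calcium median, while rat 16 lay close to the highest of them. The difference was 0.13 ± 0.059 (limma adjusted p = 0.54), and 2 further probes of the gene differed by 0.096 and 0.049. Uqcrfs1, the Rieske iron-sulfur protein, differed by 0.024 ± 0.043. The scaffold subunits Uqcrc1 and Uqcrc2 differed by -0.041 ± 0.078 and 0.035 ± 0.047. Uqcrh, a hinge protein toward cytochrome c1, differed by 0.023.

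In complex IV, cytochrome c oxidase, 10 of 12 genes lay higher with high calcium, with a median of 0.048 and a range of -0.11 to 0.12. The 8 subunits made in most tissues had a median of 0.073, with 7 higher. The 4 isoforms known from particular tissues had a median of 0.017, with 3 higher. Cox8a, the small membrane subunit found in most tissues, ran from -0.21 over -0.066 to 0.082 with high calcium and from -0.34 over -0.16 to -0.10 with low calcium. The groups overlapped, with 5 of 8 high calcium rats above every low calcium rat, and the difference was 0.12 ± 0.049 (limma adjusted p = 0.46). Cox7a2, the form of subunit 7a found in most tissues, differed by 0.10 ± 0.048 (limma adjusted p = 0.54). Cox6a1, the common form of subunit 6a, differed by 0.11 ± 0.058 (limma adjusted p = 0.60), and Cox6c by 0.091 ± 0.049.

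Cox5b, a subunit on the matrix side, gave the smallest p of all member probes on its dimmer probe. That probe ran from -0.040 over 0.0086 to 0.071 with high calcium and from -0.20 over -0.092 to 0.012 with low calcium. Of the high calcium rats 8 of 8 exceeded the low calcium median, and 4 exceeded every low calcium rat, and the difference was 0.11 ± 0.038 (limma adjusted p = 0.38). The brighter probe differed by 0.055 ± 0.0425. Cox5b was singled out after its values were seen, as were Cox6c and Uqcrh. Cox5a, which binds beside Cox5b, differed by -0.0045, Cox7b by 0.040 and Cox4i1, the common form of the regulatory subunit 4, by 0.036. Cox4i2, known from lung, differed by 0.012, Cox6a2, known from heart and skeletal muscle, by 0.022, and Cox6b2, known from testis, by -0.11 ± 0.077. Cox6b2 was at -0.48 with the scanner's processed signals and at -0.25 in the authors' deposited values and with Cy5 alone. It was at -0.17 without rat 3, its highest value, and it passed in none of these. Its probe was dim, with a mean log2 signal over both dyes of 7.5, against 16.1 for Cox8a. The Cox8b probe that was not tested was at 6.7. Cox8b, also a muscle form, differed by 0.077 and -0.023 on its 2 tested probes, so no direction can be given for it. Both were dim as well, with mean log2 signals of 7.5 and 7.1. The counts above take Cox8b as higher, by its brighter probe.

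In complex V, 10 of 13 genes lay higher with high calcium, with a median of 0.034 and a range of -0.080 to 0.18. Atp5me, the e subunit of the membrane part, which helps the synthase to form dimers, had the largest difference of all members. It ran from 0.44 over 0.62 to 0.71 with high calcium and from 0.089 over 0.47 to 0.73 with low calcium. All 17 values lay above the pool, 7 of 8 high calcium rats exceeded the low calcium median, and rat 16 had the highest value. The pool is of all animals, so values above it in every rat do not give the level of a gene. The difference was 0.18 ± 0.068 (limma adjusted p = 0.42), or 1.13-fold. It was 0.040 when the Cy5 channel was used alone, without the ratio to the pool, and Cox8a was 0.073 there. In that channel 20 of 39 named genes moved by more than 1.5 times. Among them were also Sdha (0.0056), Atp5f1e (0.041), Cox6a1 (0.066) and Ndufs1 (-0.074), whereas Ndufs7 was 0.12 and Uqcrb 0.13.

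The parts of the ATP synthase had different counts, and the difference between these counts was not tested. The 5 genes of the stator stalk and the membrane part all lay higher, with a median of 0.045, and the 5 genes of the catalytic head, F1, had 3 higher and 2 lower, with a median of 0.026. Within the head, Atp5f1d and Atp5f1e, the delta and epsilon subunits of the central stalk, differed by 0.11 ± 0.056 and 0.089 ± 0.056. Atp5f1c, the gamma subunit that turns inside the head, differed by -0.080 ± 0.059, and 1 of 8 high calcium rats exceeded the low calcium median. The catalytic beta subunit Atp5f1b differed by 0.026 and the alpha subunit Atp5f1a by -0.038. With each array centred on its median Atp5f1a was at 0.011 instead. The 3 genes for subunit c, which forms the rotating ring and is the same mature protein from each gene, differed by 0.012 (Atp5mc1), 0.048 (Atp5mc2) and -0.041 (Atp5mc3).

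**Figure D2:**
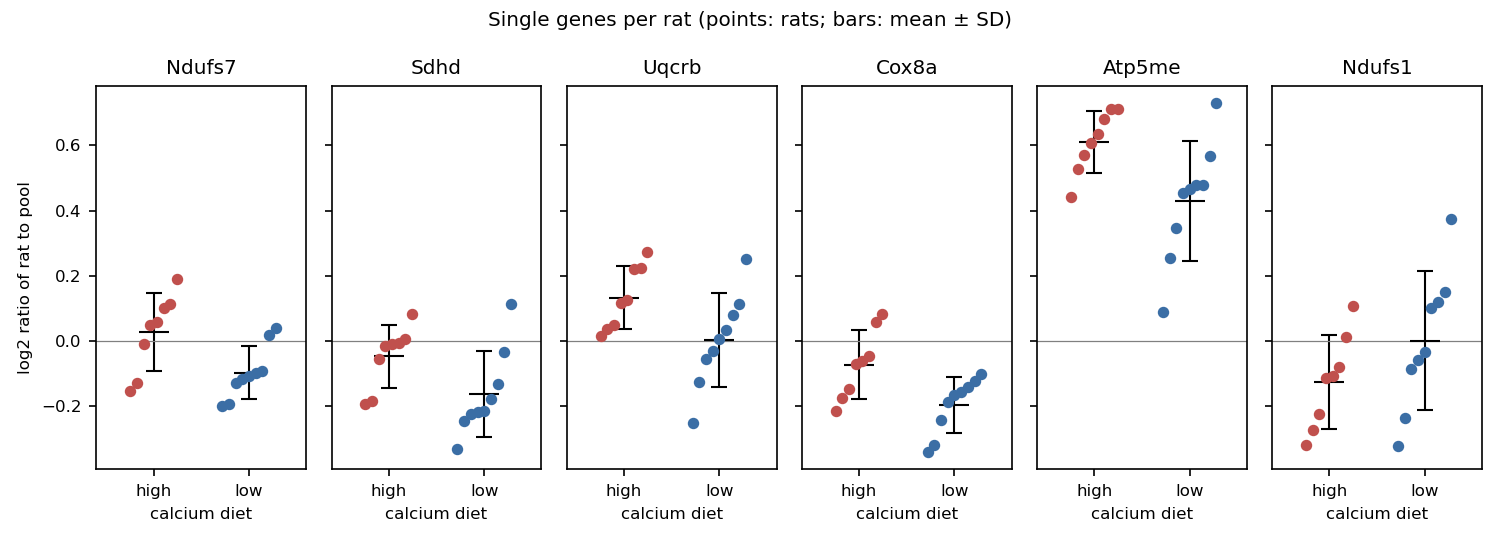
Log2 ratio to the pool (vertical axis) in each of the 8 high calcium and 9 low calcium rats (points) for 6 subunit genes, with the mean and SD of each diet as bars. The groups overlap for every gene shown; 5 high calcium rats lie above every low calcium rat for Ndufs7 and for Cox8a, and the means of Ndufs1 lie in the opposite order.

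Per animal, the diets overlapped in the mean of every complex. Complex I averaged 0.030 ± 0.039 (SD, n = 8) with high calcium and 0.0092 ± 0.049 (SD, n = 9) with low calcium. Complex II averaged 0.045 ± 0.019 and -0.018 ± 0.085 in the same order. For complex II, both the mean and the median of the low calcium rats were exceeded by 8 of 8 high calcium rats. Complex III averaged 0.033 ± 0.048 and -0.0014 ± 0.083. Complex IV averaged 0.045 ± 0.023 and -0.0018 ± 0.045 in the 2 diets, and here too 8 of 8 high calcium rats exceeded the low calcium mean and median. Complex V averaged 0.089 ± 0.033 and 0.054 ± 0.086. The low calcium median was exceeded by 5 of 8 high calcium rats in complex I, 7 in III and 8 in V. The low calcium mean was exceeded by 5, 5 and 7 in the same order. Each mean difference, from 0.020 for complex I to 0.063 for complex II, was smaller than the SD of the low calcium rats, except in complex IV, where it was 0.046 against 0.045. No p is given for these means.

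The same rats tended to be high or low in several complexes. Low calcium rat 16 had the highest value of all 17 rats in complexes I, II, III and V, at 0.11, 0.18, 0.18 and 0.25, and high calcium rat 18 in complex IV, at 0.097. Rats 13, 16 and 18 were among the 5 highest in all 5 complexes. Low calcium rats 4, 6 and 11 were among the 5 lowest in 4 of them. High calcium rat 3 was the lowest of its group in complexes I, II and III, at -0.018, 0.019 and -0.027. It was not the lowest in complexes IV and V, at 0.033 and 0.063. In complex IV rat 16 was at 0.058, below low calcium rat 15 at 0.068. With all rats the differences between the diet means were 0.020, 0.063, 0.034, 0.046 and 0.035 in the order I to V. Without rats 3 and 16 they were 0.040, 0.091, 0.066, 0.056 and 0.063. This omission was chosen after the data were seen. In every complex rat 3 lay below the mean of its diet and rat 16 above the mean of its own. Leaving them out therefore had to widen each difference, while high calcium rats 13 and 18 were kept. Leaving out rat 16 alone lowered the SD of the low calcium rats in complex II from 0.085 to 0.048. Of the high calcium rats 5 of 8 then lay above every low calcium rat there. The same count was 2 in complex I, 3 in III, 1 in IV and 1 in V. Rat 16 held the highest low calcium value in complex II, so both changes follow from the choice of rat. No member passed the limma test without both rats either (0 of 80 probes with an adjusted p under 0.05, 17, or 21.3%, with an unadjusted one), while 329 probes of all 26705 did, and 2922, or 10.9%, had an unadjusted p under 0.05.

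**Figure D3:**
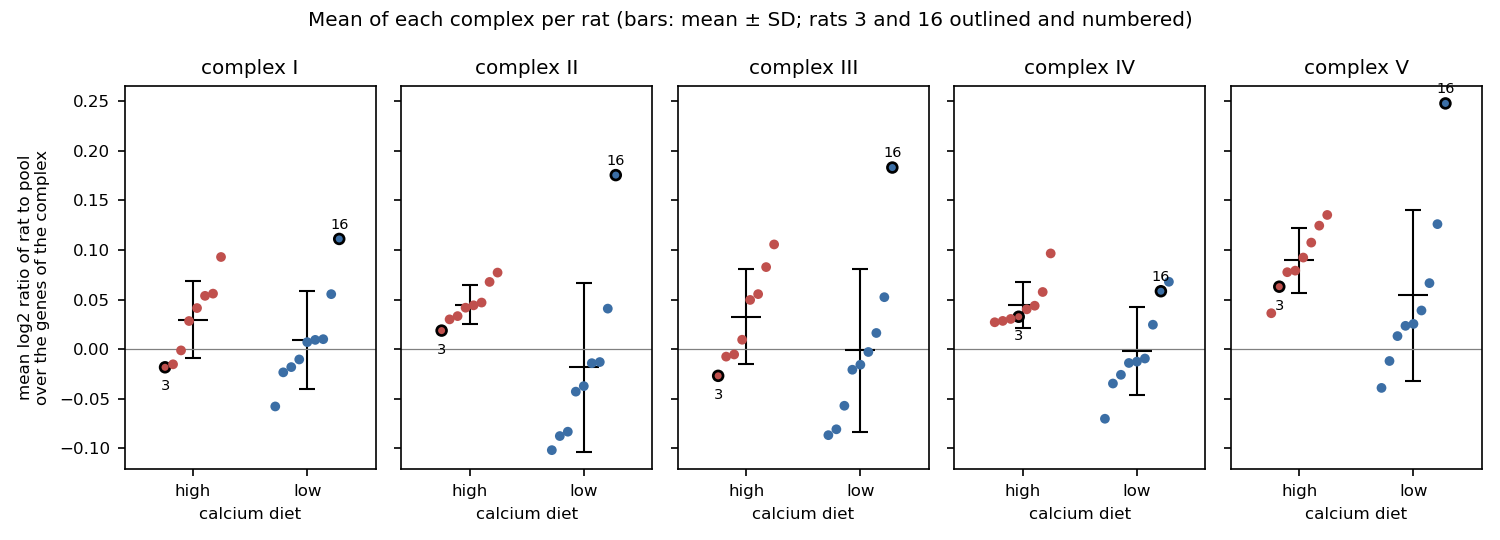
Mean log2 ratio to the pool over the genes of each complex (vertical axis) in each rat (points), with the mean and SD of each diet as bars; rats 3 and 16 are outlined. Rat 16, on low calcium, is the highest in complexes I, II, III and V, and the diets overlap in all 5.

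**Figure D4:**
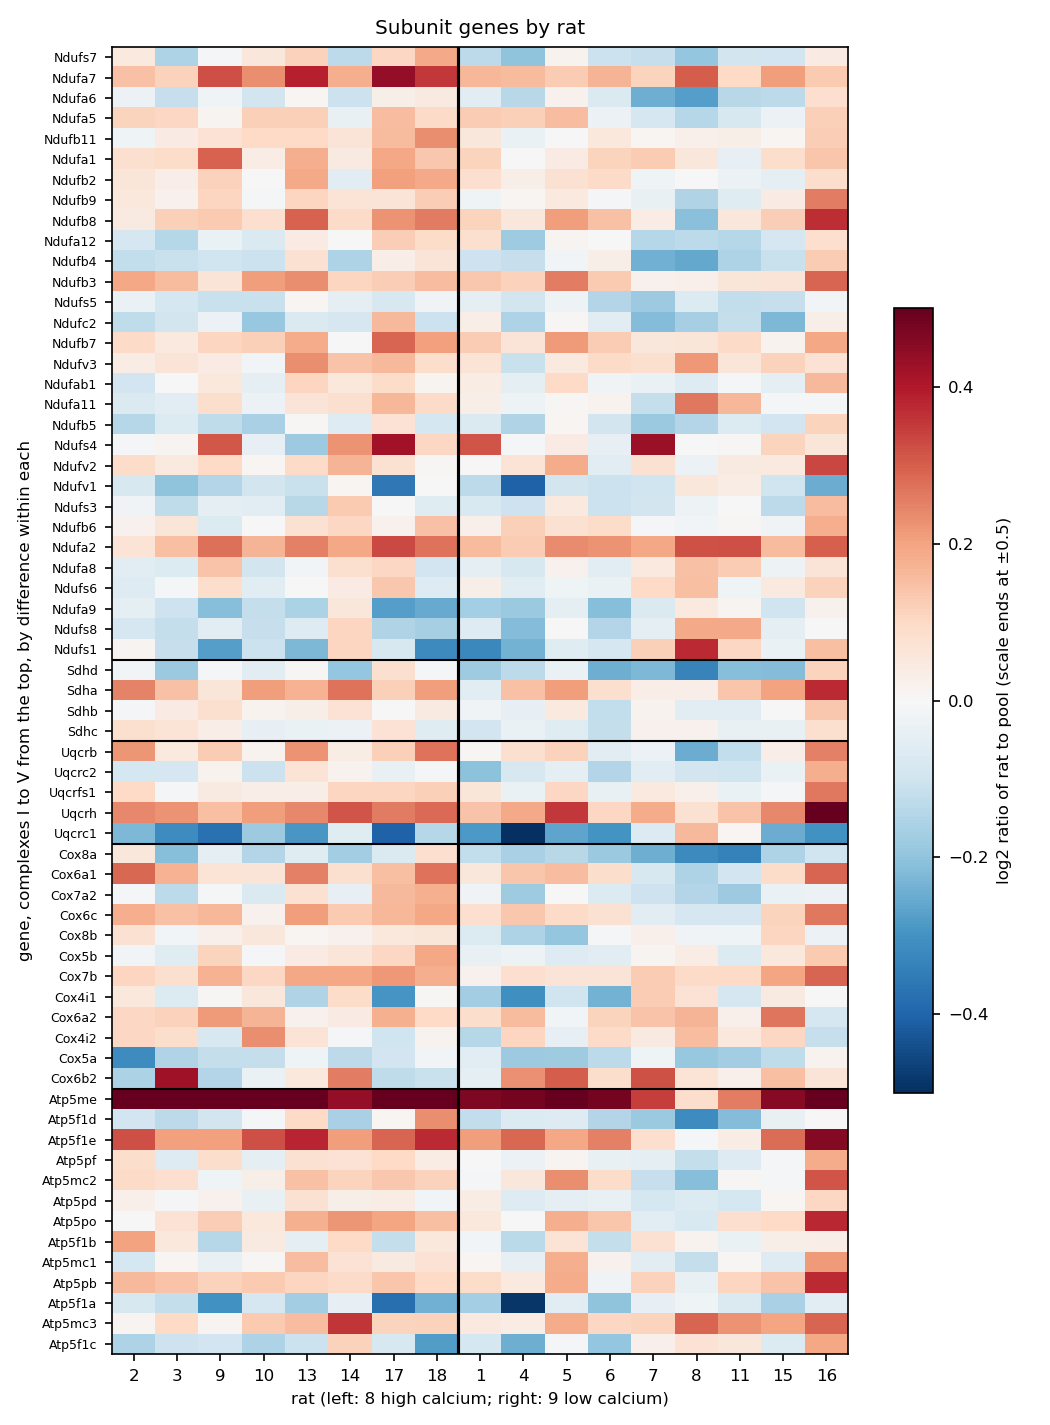
Log2 ratio to the pool (colour, ending at 0.5 either way) of 64 subunit genes in rows, by complex and by difference within each, and the 17 rats in columns, high calcium on the left. Atp5me is above the pool in every rat, as are Ndufa2, Ndufa7, Ndufb3, Ndufb7, Uqcrh, Cox7b and Atp5mc3. Rat 16 is above the pool for 54 of these 64 genes.

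Each of 4 slides held 2 rats of either diet, and the fifth held low calcium rat 1 alone. The difference between diets within a slide was not the same on all of them. On slide 1, with rats 2 and 3 on high and rats 4 and 16 on low calcium, the differences of complexes I, II, III and V were -0.036, -0.033, -0.040 and -0.048, and that of complex IV was 0.014. On slide 2 complexes I and V differed by -0.016 and -0.018, and the others by 0.011 to 0.068. On slides 3 and 4 all 5 complexes lay higher with high calcium, by 0.051 to 0.14 and by 0.055 to 0.085. Complex IV was the only one whose mean over all its genes lay higher on all 4 slides. Its 8 subunits made in most tissues differed by -0.015 on slide 1 and by 0.054 to 0.14 on the others. Its 4 tissue isoforms differed by 0.071 and 0.013 on slides 1 and 2, and by -0.055 and -0.080 on slides 3 and 4. Each of these rests on 2 rats against 2 and has no test. With the slide as a block in the limma fit, in which rat 1, alone on its slide, adds nothing to the difference, the medians of the 5 complexes were 0.028, 0.038, 0.018, 0.039 and 0.029, and 0 of 80 probes passed, with 9, or 11.3%, at an unadjusted p under 0.05, against 7.72% of all probes.

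**Figure D5:**
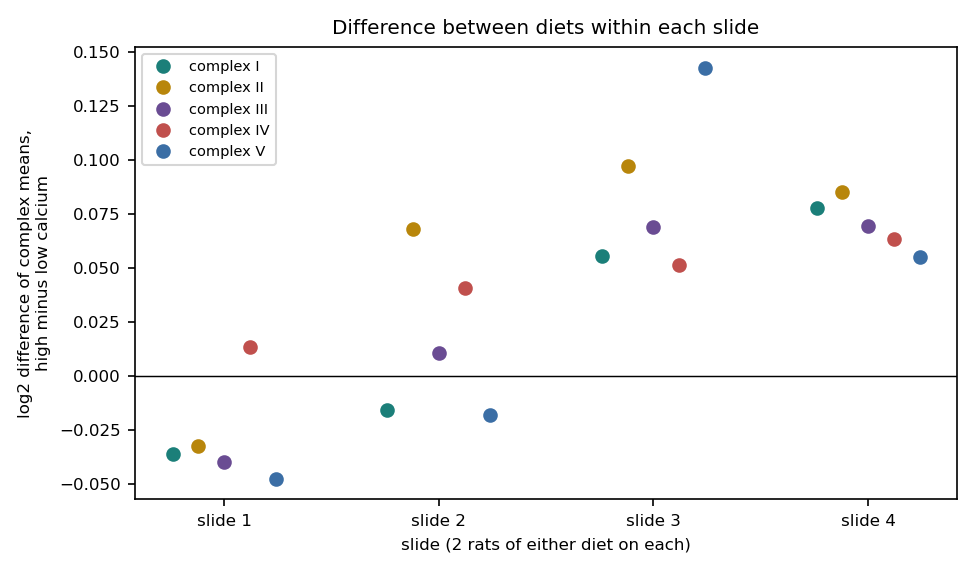
Difference between the diet means of each complex (high minus low calcium, log2, vertical axis) on the 4 slides that held 2 rats of either diet (horizontal axis). Complexes I, II, III and V lie below 0 on slide 1, and all 5 lie above 0 on slides 3 and 4.

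Of the genes set apart, 1 lay higher with high calcium and 5 lower, with a median of -0.034, and none had an unadjusted p under 0.05. Ndufaf1, an assembly factor of complex I, differed by -0.047, and Cox7a2l, which helps to join complexes III and IV, by -0.019. Dmac2l, named Atp5s on the array, differed by -0.028, and Emc8, a membrane protein named Cox4nb there, by -0.041. A pseudogene of Cox6c differed by 0.068. The probe named Cox6b by the array carries the record of a uroplakin gene, and its difference of -0.081 is not taken as that of a complex IV subunit.

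Other genes around the pathway were counted from lists. Of 25 assembly factors tested, 12 lay higher and 13 lower with high calcium, with a median of -0.0085. None passed the limma test, and 3, or 12%, had an unadjusted p under 0.05, where 9.02% of all genes did: Atpaf1, which assembles the F1 head, at 0.11 ± 0.041, the copper chaperone Cox17 at 0.12 ± 0.056, and Sdhaf1, which assists complex II, at -0.13 ± 0.054. Of 11 electron carriers and coenzyme Q genes 6 lay higher and 5 lower, with Cyc1, the cytochrome c1 of complex III, at 0.0024 and cytochrome c (Cycs) at -0.014. Etfb had the smallest p of these, at 0.13 ± 0.066. Of 9 genes for the exchange of nucleotides and phosphate 6 lay higher and 3 lower. Slc25a4, the carrier of ADP and ATP known from heart and muscle, differed by -0.29 ± 0.075 (limma adjusted p = 0.19), while Slc25a5, a carrier of the same exchange in many tissues, differed by 0.049 ± 0.0565. Ckmt1 had the largest difference above 0 in this list, at 0.16 ± 0.10. Of 16 regulators 10 lay higher and 6 lower, with the coactivator Ppargc1a at 0.097 ± 0.076 and the factors Nrf1, Gabpa and Yy1 at -0.027, -0.016 and 0.055. Among the regulators Tfb1m had the smallest p, at 0.074 ± 0.043, and Polg the largest difference, at -0.17 ± 0.12. Of 16 citrate cycle genes 9 lay higher and 7 lower, with a median of 0.0042. None passed, and Suclg2, a subunit of succinyl-CoA ligase, had the smallest p, at 0.12 ± 0.048.

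Markers of other cell types were counted in the same way, and their part in the values of the complexes was not tested. All 12 epithelial markers were above background in this mucosa, and 9 lay higher with high calcium, with a median of 0.072. Their mean ran from -0.093 to 0.23 with high and from -0.22 to 0.18 with low calcium. Of 7 fibroblast markers 7 lay lower, with a median of -0.49, and their mean ran from -0.80 to 0.24 with high and from -0.13 to 0.48 with low calcium. Of 11 leukocyte markers 10 lay lower, with a median of -0.14, and their mean ran from -0.41 to 0.010 and from -0.20 to 0.27. Of 9 smooth muscle markers 6 lay lower, with a mean from -0.28 to 0.10 and from -0.24 to 0.17, and of 6 pericyte markers 4 lay lower, with a mean from -0.26 to 0.31 and from -0.16 to 0.21. Of 5 striated muscle markers 4 lay higher, with a mean from 0.042 to 0.21 with high and from -0.048 to 0.13 with low calcium, and Ckm, Myh7 and Myl1 were not well above background. The brown fat genes Ucp1 and Cidea differed by -0.15 and -0.28. In limma 0 of these markers had an adjusted p under 0.05, and 20 of 52, or 38.5%, an unadjusted one, against 9.02% of all genes. Thy1 and Lmod1 were not well above background.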

How the data were processed

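Colon mucosa of 17 rats was measured on 17 Agilent arrays. The deposited scanner files hold intensity values (signals, backgrounds and flags of both dyes). Per the file headers the software was Agilent Feature Extraction 9.5.1.1, and the submitters' processing notes give 9.5. The files also hold the software's log10 ratio of Cy5 over Cy3, per the file headers. The series matrix deposited by the authors covers 28213 of 45018 features in log2 units, and its making is not given in the sources used for this work. It followed the scanner's Cy5 over Cy3 ratio (r = 0.980 across genes and arrays after centring, no independent replicates), every array median was 8.76, and the offset of its scale is unknown. It served as an alternative only.

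Background was corrected by normexp (offset 50), and arrays were normalised within by loess, with control spots and outlier flags at weight 0 (limma 3.58.1, R 4.3.3). Spots of a probe were averaged, from 43379 spots to 41012 probes, and the 27101 that Cy5 showed well above background on 8 or more arrays were tested. Loess centres each array, which hides a change common to most genes. Median Cy5 signal was 146.8 to 180.8 over a background of 43.5 to 53.5, and between 60.0% and 72.0% of probes lay well above background. Diets were compared by limma's lmFit and eBayes (two-sided, no covariates), and p-values were adjusted over all tested probes by the Benjamini-Hochberg method. The fit was run on simulated data, to check only that added differences were recovered on average. Noise was drawn for each probe apart, so rats high in many genes together were not simulated.

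Array names were updated through RefSeq's GRCr8 gene table by accession (10735 probes), symbol (5577) or synonym (3730), and 20970 kept theirs. The file headers name another build, so no gene coordinate is given besides the promoter windows. The mitochondrially encoded list, 13 genes, matched no probe. A gene is given by its brightest tested probe. Named are, per complex, up to 3 genes of smallest p in each direction, the catalytic core, paired isoforms, genes whose probes differ in sign, and up to 3 of each pathway list; other genes were chosen after their values were seen. The values of 1 subunit gene and 1 marker gene are not reported here. The members and lists were chosen with earlier results of these data known. Alternatives to background correction, normalisation, channel, filter, weights, variance model, slide and probe rule, and leaving out each rat, were run.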

Additional observations from a re-analysis of the deposited data

Results flagged for a closer look

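Of 88 groups of rats examined, one per diet for each named gene and complex, 7 held a single rat far from the others; chance gives about 1 in 20 groups. Low calcium rat 16 was far above its group for Uqcrc2 (0.18) and Uqcrfs1 (0.26), both of complex III. High calcium rat 18 was far above its group in the mean of complex IV (0.097). High calcium rat 14 was far above for Ndufs8 (0.11) and for Atp5mc3 (0.36). High calcium rat 2 was far below for Cox5a (-0.31), and low calcium rat 4 for Atp5f1a (-0.48).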

How the results depend on the processing

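Of 80 member probes 0 passed in each of 12 other settings and without each rat in turn, and the medians of the 5 complexes stayed above 0 in all 150 alternative values. Not all of these are separate checks. The other filters and the other variance model left each median at its main value, and the slide block gave the medians found without rat 1. The gene values below hold the same repeats. Counts at an unadjusted p under 0.05 ran from 0 (median centring, 2.87% of all probes) to 15 (no background correction, 18.8% against 9.56% of all probes), and without single rats from 3 (rat 18, 3.75% against 5.86%) to 13 (rat 16, 16.3% against 8.57%); 17 probes lay under it without rats 3 and 16, an omission chosen after the data were seen. Median centring gave medians of 0.078, 0.097, 0.075, 0.093 and 0.082 for complexes I to V, as all probes moved from 0.0069 to 0.041. Series matrix values gave 0.049 for I, 0.049 for III and 0.055 for V, and array weights 0.012 for I. Moves over 1.5 times without 1 rat were to 0.014 (rat 15 or 17) and 0.038 (rat 5) in I, 0.073 (rat 16) in II, 0.014 (rat 6), 0.015 (rat 11), 0.038 (rat 5) and 0.061 (rat 16) in III, and 0.016 (rat 8), 0.020 (rat 14) and 0.061 (rat 16) in V, with none in IV; genes higher in complex I ranged from 16 (array weights) to 27 (median centring, series matrix). In size, 30 of 39 genes moved by more than 1.5 times with median centring, 22 with series matrix values and 20 with Cy5 alone. Fewer did so in each other setting. Of 1169 values for 39 genes 63 took the opposite sign, in 13 genes, and none passed. With median centring these were Ndufs3 (0.047), Ndufv1 (0.046), Ndufv2 (0.049), Uqcrc1 (0.030), Cox5a (0.041), Atp5f1a (0.011), Atp5mc3 (0.0049) and Cox7a2l (0.029). With series matrix values they were Ndufs3 (0.000721), Ndufv1 (0.043), Ndufv2 (0.027), Uqcrc1 (0.0068), Cox5a (0.010), Cox6a2 (-0.00377) and the Cox6b probe (0.019). With scanner processed signals they were Ndufs3 (0.0079), Ndufv1 (0.021), Ndufv2 (0.0017) and Uqcrc1 (0.00441), and without background correction Ndufs3 (0.000857) and Ndufv1 (0.018). With Cy5 alone they were Ndufv2 (0.0033), Uqcrc1 (0.013), Cox6a2 (-0.033) and Atp5mc1 (-0.000364), with array weights Atp5mc1 (-0.000256), with the slide as a block Cox4i2 (-0.0095) and Cox5a (0.0033), and with the mean of probes Ndufa9 (0.0086). Leaving out rats gave ranges of -0.027 to 0.034 for Ndufs3, -0.038 to 0.031 for Ndufv1, -0.016 to 0.036 for Ndufv2, -0.086 to 0.0051 for Uqcrc1, -0.015 to 0.032 for Cox4i2, -0.020 to 0.023 for Cox5a, -0.00052 to 0.043 for Cox6a2 and -0.0053 to 0.039 for Atp5mc1. The cause was not tested. No paired analysis was possible because each rat carries its own number and the diets share none. The scan date was not run as a block, since each slide was scanned once.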
